A study of Bos taurus with 30 samples.

Results

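MiR-103 and miR-107 are a pair of closely related microRNAs (miRNAs), short RNAs that lower the output of the mRNAs they pair with. They were taken by name, as the rows bta-miR-103 and bta-miR-107 of the deposited table, and are 2 of the 863 rows that held any read. The libraries were made from small RNA of the arcuate nucleus (ARC), the hypothalamic region that senses metabolic status, in 30 Holstein-Friesian bull calves, with 1 library per calf. From 2 to 12 weeks of age, 15 calves were offered a high plane of nutrition (HI), which was 1.5 kg of milk replacer in 10 L per day with concentrates ad libitum, for an expected gain of 1.0 kg per day. The other 15 calves were offered a moderate plane (MOD), which was 0.5 kg of milk replacer in 4 L per day with 0.5 kg of concentrates, for an expected gain of 0.5 kg per day. The comparison of the diets asked whether early feeding alters miRNAs in the ARC, and here it was made for the pair.

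The genes of both miRNAs lie inside genes for pantothenate kinases, the enzymes that start the synthesis of coenzyme A from vitamin B5, so that each miRNA is encoded within a gene of energy metabolism. Their mature sequences begin with the same seed, the stretch that selects target mRNAs, and differ near the 3′ end. In liver and fat they are known for lowering insulin sensitivity, with caveolin-1, a protein of the membrane domains that hold the insulin receptor, as a target. MiR-103 is also used as a reference for other miRNAs in qPCR because its level varies little between tissues.

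In the RefSeq annotation, bovine miR-103 had 2 loci. MIR103-1 (gene ID 790976) was spanned by PANK3 (gene ID 510749) and MIR103-2 (gene ID 100170928) by PANK2 (gene ID 535933). The single locus of miR-107, MIR107 (gene ID 791005), was spanned by PANK1 (gene ID 535887). The deposited values had the form of CPM, which relates the reads of a row to the size of its library, with library sizes scaled by the TMM method. They are called scaled CPM here. Within a library these values rise in steps of 1 read, and the reads behind each value were recovered from those steps. By these steps, miR-107 had a whole number of reads in 30 of 30 libraries. MiR-103 had a whole number in 25 libraries and a number ending in 0.5 in 5, those of HI calves A17855, A27823, A27848 and A31979 and MOD calf A61973. The recovered reads of A31979 are less certain, since a second check did not accept its values as whole reads. Fractions of this kind occurred in 47 of the 80 miRNAs with several RefSeq loci (58.8%) and in 21 of the 756 with 1 locus (2.78%). How reads that match both miR-103 and miR-107 were counted is not given in the sources used here. The level of each one is therefore uncertain to the extent that such reads were split or counted in both, and the summed level and the ratio are given beside them.

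Each library held between 6291376 and 21083250 reads of miRNAs (median 8635354). The libraries fell into 21 shallower ones (12 HI, 9 MOD), of up to 8988039 reads, and 9 deeper ones (3 HI, 6 MOD), of 17193358 reads or more. An earlier analysis of these data had also set apart, from the values, the 9 calves with the lowest animal codes (7 HI, 2 MOD) from the other 21 (8 HI, 13 MOD), and results for the pair are given within both splits. All 7 neuronal marker miRNAs, among them miR-124a and miR-9-5p, had reads in each of the 30 libraries. Marker miRNAs of the pituitary, which adjoins the ARC, were summed per calf. By these sums 8 calves (5 HI, 3 MOD), at 16154 to 100739 scaled CPM, were set apart from the other 22, at 2289 to 10003. The split was the widest gap in log2 sums that left enough calves on each side for values within each group. A wider gap lay within the 8, between 22849 (MOD calf A57867) and 51091 (HI calf A17855). In a bulk sample, fewer cells of a type and less RNA per cell cannot be told apart.

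Both miRNAs were abundant in the ARC. By mean level over the 30 calves, miR-103 ranked 28 and miR-107 ranked 50 of the 863 miRNAs. Behind each value stood 31478 to 162217 reads for miR-103 and 12745 to 71253 reads for miR-107. The pair together took between 0.575% (HI calf A37824) and 1.29% (MOD calf A51980) of the reads counted in a library, with a median of 1.13%. Its share of reads varied more between calves than its scaled level, with a coefficient of variation of 18.1% against 10.6%.

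MiR-103 ranged from 5658 scaled CPM in MOD calf A73759 to 9199 in HI calf A13745, with a median of 7294 over the 30 calves. MiR-107 ranged from 2369 scaled CPM in HI calf A37824 to 4324 in HI calf A13745, with a median of 3189. The same 3 calves, A37824, A41971 and A73759, were lowest for both miRNAs, and the same 2, A13745 and A27864, were highest for both. These 5 calves set the outer range, and the other 25 lay between 6464 and 8173 scaled CPM for miR-103 and between 2797 and 3492 for miR-107.

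As scaled in the deposited values, the pair was among the least variable miRNAs of the ARC. No rank was computed on another scaling. As a share of reads, the coefficient of variation was 17.8% for miR-103 and 19.2% for miR-107, against 10.0% and 12.3% in scaled CPM. On the scale of log2(scaled CPM + 0.25), the SD between the 30 calves was 0.15 for miR-103, the 10th lowest of the 476 miRNAs kept by the filter on low values. For miR-107 the SD was 0.18, the 26th lowest. The median SD was 0.37 over the 476 miRNAs and 0.31 over the 100 most abundant. Among those 100, miR-103 had the 6th and miR-107 the 10th lowest SD. Counting error contributed an SD of at most 0.0081 for miR-103 and 0.013 for miR-107.

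**Figure D1:**
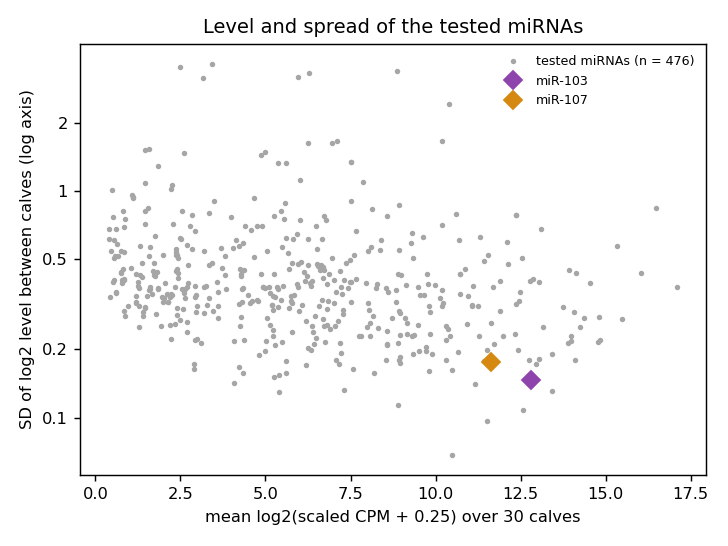
Mean level on the scale of log2(scaled CPM + 0.25) against the SD of that level between the 30 calves (log axis), for the 476 tested miRNAs (grey points), with miR-103 and miR-107 as diamonds. Both diamonds sit at the lower edge of the points of like abundance, at an SD of 0.15 and 0.18.

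Neither miRNA differed between the diets beyond the spread between calves. In the HI calves, miR-103 lay between 5851 and 9199 scaled CPM, with the median at 7269. In the MOD calves it lay between 5658 and 8173, with the median at 7394. The groups overlapped between 5851 and 8173, with 5 of 15 HI calves above the MOD median and 9 of 15 MOD calves above the HI median. The mean was 7324 ± 793 scaled CPM in HI and 7193 ± 673 in MOD (SD, n = 15 each). The log2 fold change of HI over MOD was 0.025 (SE 0.058, 95% interval -0.094 to 0.14, limma adjusted p = 0.984, permutation p = 0.655). 

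The values of miR-107 overlapped between the diets as well. In the HI calves its lowest value was 2369, its median 3051 and its highest 4324 scaled CPM. In the MOD calves these were 2461, 3239 and 3492. The MOD range lay inside the HI range, 5 of 15 HI calves were above the MOD median and 12 of 15 MOD calves were above the HI median. The mean was 3186 ± 477 scaled CPM in HI and 3134 ± 291 in MOD (SD, n = 15 each). The log2 fold change was 0.016 (SE 0.068, 95% interval -0.12 to 0.15, limma adjusted p = 0.984, permutation p = 0.812). Mean and median thus lay in opposite order for both miRNAs, the mean being higher in HI and the median in MOD. HI calves A13745 and A27864, with 4324 and 4043 scaled CPM of miR-107, were the only calves of the 30 above 3492. Without 1 calf in turn, the log2 fold change of miR-107 lay between -0.017 and 0.045, and that of miR-103 between 0.00038 and 0.047. Within the shallower libraries it was 0.022 for miR-103 and 0.020 for miR-107 (exact permutation p = 0.748 and 0.816), and within the deeper ones 0.023 and -0.023 (exact permutation p = 0.869 and 0.845). Within the lowest animal codes it was -0.025 for miR-103 and -0.0080 for miR-107 (exact permutation p = 0.889 and 0.972), and within the other codes 0.014 and -0.0063 (exact permutation p = 0.810 and 0.917).

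**Figure D2:**
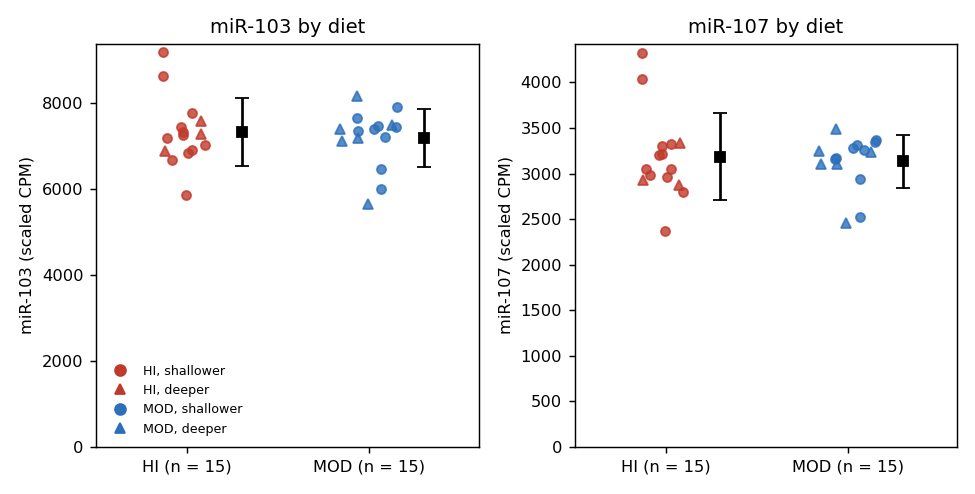
Scaled CPM of miR-103 (left) and miR-107 (right) in each calf by diet, with red for HI, blue for MOD, circles for shallower and triangles for deeper libraries; black squares and bars are the mean ± SD of 15 calves. The groups overlap in both panels, and the 2 highest points of each panel are HI calves A13745 and A27864.

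At an adjusted p under 0.1 with a fold change over 1.5, limma called 0 of the 476 miRNAs tested between the diets (0%). Without adjustment, 21 miRNAs had a p under 0.05 in limma, and neither miR-103 (p = 0.674) nor miR-107 (p = 0.816) was among them. With the recovered reads, 0 miRNAs were called by edgeR (quasi-likelihood test), with 20 at an unadjusted p under 0.05. DESeq2 called 1, miR-2419-3p (adjusted p = 0.0561), with 21 at an unadjusted p under 0.05. The 95% intervals of both log2 fold changes ended well short of the fold change of 1.5 in either direction.

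The sum of the pair does not depend on how shared reads were divided between its rows, unless they were counted in both. It ranged from 8220 to 13523 scaled CPM in the HI calves, with a median of 10232, and from 8119 to 11665 in the MOD calves, with a median of 10646. Its mean was 10510 ± 1260 scaled CPM in HI and 10327 ± 955 in MOD (SD, n = 15 each). The log2 difference was 0.022 (95% interval -0.094 to 0.14, permutation p = 0.703).

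The ratio of miR-103 to miR-107 is free of library scaling, since both values come from 1 library. Over the 30 calves it ranged from 2.13 in A13745 to 2.53 in A42931, both HI calves, with a median of 2.30. In these 2 libraries, miR-107 made up 32.0% (95% Clopper-Pearson interval 31.7% to 32.3%) and 28.4% (28.2% to 28.6%) of the reads of the pair. These intervals cover counting error only, and the 2 libraries are the extremes of the 30. The ratio was 2.31 ± 0.120 in HI and 2.30 ± 0.0618 in MOD (SD, n = 15 each). Its mean log2 value was 1.207 in HI and 1.199 in MOD, a difference of 0.0087 (95% interval -0.036 to 0.053, permutation p = 0.692). The 5 calves with the most extreme ratios, 2 below and 3 above all MOD calves, were on the HI diet, and no test of the spread itself was made.

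**Figure D3:**
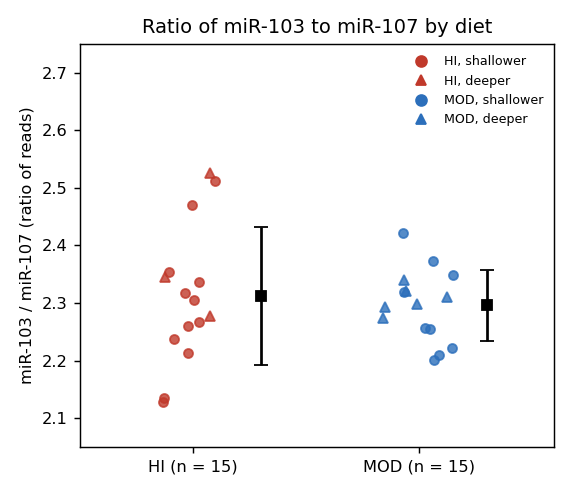
Ratio of miR-103 to miR-107 reads in each calf by diet, with circles for shallower and triangles for deeper libraries; black squares and bars are the mean ± SD of 15 calves, and the axis does not start at 0. The means of 2.31 and 2.30 nearly coincide, while the HI points reach from 2.13 to 2.53 and the MOD points from 2.20 to 2.42.

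The pair was not called different by sequencing depth. With diet in the model, the log2 difference between deeper and shallower libraries was -0.012 (SE 0.066, limma adjusted p = 0.991) for miR-103 and -0.040 (SE 0.077, limma adjusted p = 0.968) for miR-107. Limma called 0 of 476 miRNAs (0%) between the depth classes, and 24 had an unadjusted p under 0.05. The log2 ratio averaged 1.22 in the 9 deeper and 1.196 in the 21 shallower libraries (exact permutation p = 0.292). The diet difference was not called different between the depth classes (interaction term in limma, adjusted p = 0.999 for both miRNAs), with a log2 difference of 0.00087 (SE 0.14) for miR-103 and -0.042 (SE 0.16) for miR-107. With 3 HI calves among the deeper libraries, these intervals were wide, from -0.28 to 0.28 and from -0.37 to 0.28.

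MiR-103 and miR-107 varied together between calves. Over the 30 calves their log2 levels had a Pearson r of 0.951 and a Spearman rho of 0.896 (permutation p = 1e-05 each, the smallest that 100000 resamples can give, and adjusted p = 2e-05 over 2 relations). Without the 2 calves farthest from the median of miR-107, r was 0.925. It was 0.957 in the shallower and 0.951 in the deeper libraries, and 0.969 in the calves with the lowest codes and 0.941 in the others. Each pair of values shared its library and its scaling, and possibly reads. The log2 ratio was lower where the summed level was higher by Pearson's r (-0.46, permutation p = 0.011) but not by Spearman's rho (-0.24, p = 0.20). Its r was -0.0048 in the deeper libraries and -0.066 in the calves of the other codes, and -0.58 in the shallower libraries and -0.74 in the calves with the lowest codes. These values within classes were not tested, and the 9 calves with the lowest codes are all among the shallower libraries.

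**Figure D4:**
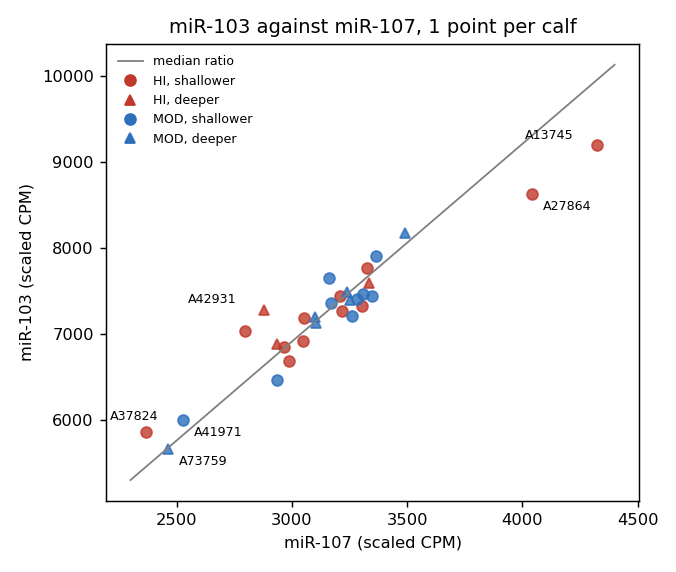
MiR-103 against miR-107 in scaled CPM, with 1 point per calf, red for HI, blue for MOD, circles for shallower and triangles for deeper libraries; the grey line marks the median ratio of 2.30. The points follow the line from A37824, A41971 and A73759 at the bottom to A27864 and A13745 at the top, which lie below it.

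Among the 475 other miRNAs tested, miR-107 had the profile most like that of miR-103. After it came miR-652 (r = 0.744), miR-382 (0.696), miR-9-5p (0.691), and miR-124a and miR-124b, whose rows were identical (0.687). For miR-107, the most alike after miR-103 were miR-652 (r = 0.749), miR-382 (0.717), miR-410 (0.714), miR-95 (0.697) and miR-154b (0.684). MiR-9-5p and miR-124a are miRNAs of neurons, and miR-382, miR-410 and miR-154b come from the large imprinted miRNA cluster between DLK1 and DIO3. All of these are descriptions over 30 calves, and all values of a calf shared its library and its scaling. The likeness of miR-652 was 0.815 for miR-103 and 0.800 for miR-107 in the shallower libraries, and 0.555 and 0.617 in the deeper ones. With miR-107, miR-95 went the other way, at 0.701 in the shallower and 0.785 in the deeper libraries. So did miR-154b, at 0.666 and 0.793. The rest of those named after the pair were less alike in the deeper libraries.

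Both miRNAs were higher in calves with more of the neuronal markers, at an adjusted p under 0.1 for r and rho. Over 30 relations of miR-103, miR-107 and their log2 ratio with lists of marker miRNAs, adjusted together, the summed neuronal list had a Pearson r of 0.686 with miR-103 (permutation p = 0.00011, adjusted p = 0.0033) and a rho of 0.539 (p = 0.0026, adjusted p = 0.0383). Without the 2 calves farthest from the median of the list, r was 0.511. It was 0.754 in the shallower and 0.565 in the deeper libraries, and 0.783 in the calves with the lowest codes and 0.629 in the others. For miR-107, r was 0.638 (permutation p = 0.00034, adjusted p = 0.0051) and 0.391 without the same 2 calves, and rho was 0.458 (p = 0.012, adjusted p = 0.072). The neuronal list summed to between 17944 and 88539 scaled CPM, with all 7 members above 0 in every library. Most of it was miR-9-5p, with a mean of 45319 scaled CPM in HI and 43429 in MOD. MiR-9-5p alone had an r of 0.691 with miR-103. All calves with neuronal sums up to 49132 scaled CPM (MOD calf A57867) were among the 8 set apart by the pituitary list. The neuronal relation was not computed within the other 22 calves. 

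The pituitary list moved with the low end of the pair. The 3 calves with the highest pituitary sums, A37824 (100739 scaled CPM), A41971 (84373) and A73759 (66540), were the 3 lowest calves for both miR-103 and miR-107. Of these, A37824 and A41971 also had the lowest neuronal sums of the 30 calves, at 17944 and 24244 scaled CPM. In the 8 calves high for the pituitary list, miR-103 ranged from 5658 to 7271 and miR-107 from 2369 to 3217 scaled CPM, against 6464 to 9199 and 2797 to 4324 in the other 22. Within those 8, r between the list and miR-103 was -0.77 (exact permutation p = 0.0318, adjusted p = 0.119) with a rho of -0.76 (exact permutation p = 0.0368, adjusted p = 0.138), and neither passed the adjustment. For miR-107, r was -0.65 (exact permutation p = 0.0797). These 8 calves lay on both sides of the gap between 22849 and 51091 scaled CPM, and no r is given for either side. Within the other 22, r was 0.065 for miR-103 and 0.088 for miR-107 (permutation p = 0.774 and 0.696). Of the 10 pituitary markers, miR-200b and miR-96 were at 0 in at least 1 library. All 8 tested members of the list had a log2 fold change above 0 between the diets, none was called, and its sum ranged from 2325 to 100739 scaled CPM in HI and from 2289 to 84373 in MOD. The part of pituitary or neuronal RNA in the levels of the pair was not tested. With the pituitary list as a term, the log2 fold change between diets was 0.036 for miR-103 and 0.029 for miR-107 (limma adjusted p = 0.863 and 0.904).

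**Figure D5:**
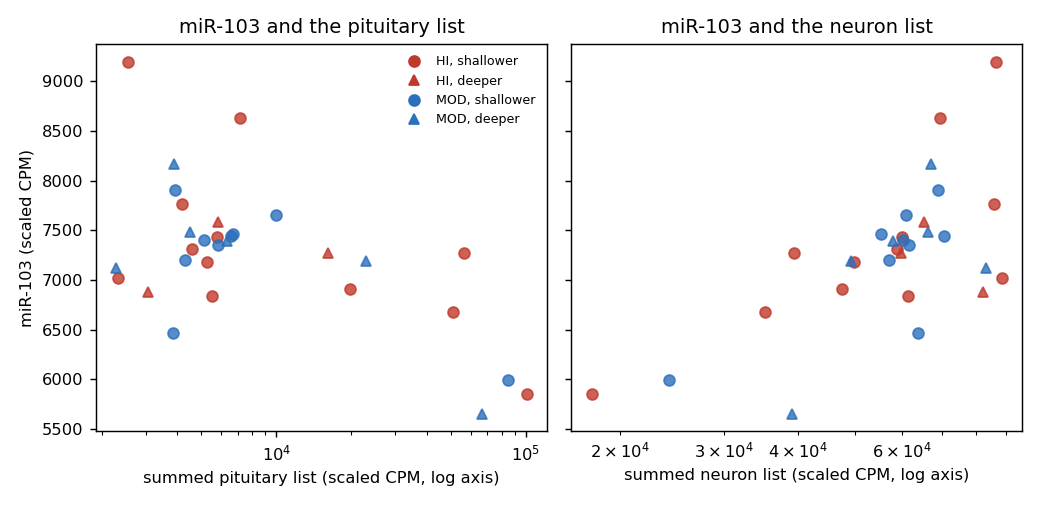
MiR-103 in scaled CPM against the summed pituitary list (left) and the summed neuronal list (right), both on log axes, with 1 point per calf, red for HI, blue for MOD, circles for shallower and triangles for deeper libraries. The 3 lowest calves for miR-103 are those with the highest pituitary sums, and the lowest neuronal sums are also found at low miR-103.

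Other lists moved with the pair less evenly. Erythroid miRNAs (miR-451, miR-144 and miR-486, all 3 above 0 in every library) summed to 21182 to 39732 scaled CPM in HI and 23713 to 40320 in MOD. The sum was almost all miR-486, with a mean of 29876 scaled CPM in HI, against 354 for miR-451 and 11.7 for miR-144. The values below are those of the sum, and none is given for miR-451 or miR-144 alone. The r of the sum was 0.601 with miR-107 (permutation p = 0.00051, adjusted p = 0.0051) and 0.514 with miR-103 (permutation p = 0.0039, adjusted p = 0.0167), with a rho of 0.463 (adjusted p = 0.072) and 0.415 (adjusted p = 0.10). Its r with the log2 ratio was -0.52 (permutation p = 0.0030, adjusted p = 0.0152) and rho was -0.55 (adjusted p = 0.0383), and r was -0.65 in the shallower libraries and -0.85 in the calves with the lowest codes. It was 0.25 in the deeper libraries and -0.11 in the calves of the other codes, and no test was made within the classes, of which the lowest codes are all among the shallower libraries. Muscle miRNAs, of which miR-1 and miR-206 were at 0 in at least 1 library, summed to only 25.3 to 126 scaled CPM. Their r was -0.54 with miR-103 and -0.53 with miR-107 (adjusted p = 0.0107 each), rho was -0.49 and -0.43 (adjusted p = 0.0706 and 0.086), and r fell to -0.37 and -0.35 without the 2 farthest calves. No relation with the lists for oligodendrocytes, choroid plexus and ependyma, leukocytes, vessels or liver passed the adjustment for either miRNA, and the lowest adjusted p among them was 0.151. Some of these values moved when calves were left out or taken by class, with no test. Without the 2 farthest calves, r of the oligodendrocyte list rose from 0.357 to 0.561 with miR-103 and from 0.231 to 0.498 with miR-107. For the vessel list, r with miR-103 was -0.34 over the 30 calves, -0.75 in the calves with the lowest codes and -0.43 in the others, and with miR-107 it was -0.33, -0.58 and -0.48. For the liver list, of which miR-122 and miR-483 were at 0 in at least 1 library, r with miR-103 was -0.33 over the 30 calves (adjusted p = 0.184) but -0.74 in the calves with the lowest codes and -0.73 in the others. With miR-107 it was -0.30, -0.67 and -0.69 in the same order, and the values within the classes were not tested. The list summed to 4350 to 8071 scaled CPM in HI and 4313 to 6236 in MOD. Most of this sum was miR-192, with a mean of 5410 scaled CPM in HI and 5014 in MOD. What part any of these tissues had in the levels of the pair was not tested.

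The related miR-15/16 miRNAs, which share part of the seed of miR-103 and miR-107, likewise showed no call between diets. Of 8 tested, 4 were higher and 4 lower in HI and 0 were called, with a median log2 fold change of -0.00018, beside -0.0022 over all 476 miRNAs. The most abundant, miR-16b, had a mean of 1779 ± 510 scaled CPM in HI and 1682 ± 424 in MOD. The log2 fold changes ran from -0.35 for miR-497 (limma adjusted p = 0.912) to 0.09 for miR-424-5p (limma adjusted p = 0.984). MiR-424-5p was also the miRNA with the profile least like that of miR-107 (r = -0.70 over 30 calves), and for miR-103 the least alike was miR-32 (r = -0.75).

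Among 21 miRNAs known for roles in insulin signalling and lipid metabolism, 20 were tested, 12 were higher and 8 lower in HI, and 0 were called, with a median log2 fold change of 0.038. Of the 20, 4 had a p under 0.05 before adjustment, beside 21 of all 476, and these 4 (miR-145, miR-33b, miR-29a and miR-29c) were lower in HI. The most abundant, miR-26a, had a log2 fold change of 0.07 (SE 0.14). The lowest was that of miR-145, a miRNA of smooth muscle and of insulin signalling, at -0.46 (SE 0.16, limma adjusted p = 0.878), and the highest that of miR-375, a regulator of insulin secretion that is also abundant in the pituitary, at 0.21 (SE 0.86). Of 12 miRNAs in the table known from hypothalamic control of energy balance, 11 were tested, 8 were higher and 3 lower in HI and 0 were called, with a median of 0.022 and 1 at a p under 0.05 before adjustment. Their values ran from that of miR-145 to 0.89 for miR-200a (SE 1.29, limma adjusted p = 0.982), which with miR-7 and miR-429 is also on the pituitary list, and the most abundant, miR-9-5p, was at -0.0086 (SE 0.21).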

How the data were processed

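Small RNA libraries of the ARC from 30 calves were compared between diets, with groups from the labels. The animals share no number between diets. Per the methods of the study, adapters were cut with Cutadapt, reads of miRNA length were retained and cleared of other small RNA classes, and known miRNAs were quantified in miRDeep2, with Bowtie alignment to ARS-UCD1.2. The deposited signal values have the form of TMM-scaled CPM. Their totals per library lay between 825695 and 1429908. The submitters' notes name cutadapt 2.6 and edgeR 3.5.

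To recover reads, values were divided by the step of 1 read in each library, and 94.5% to 97.9% of values under 200 reads came out whole within 0.02 reads. Limma (lmFit, eBayes with a trend) was run on log2(value + 0.25) for the 476 miRNAs kept by edgeR's filterByExpr on these reads, with Benjamini-Hochberg adjustment. At median depth, the pseudocount equals 2.08 reads. The count test in edgeR, run on reads rounded to whole numbers, called 0 miRNAs. For single values, permutation tests were two-sided and drew 100000 resamples, and those within classes were exact. Intervals of shares are Clopper-Pearson at 95% and cover counting error only, while those of log2 differences come from the spread between calves. Where nothing shows otherwise, p-values measure the spread between calves with 1 library each.

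The pair, the marker and pathway lists, the classes and the tests were chosen with earlier results of these data known. The named miRNAs are the pair, any past the thresholds, the 5 most alike to each besides its partner, and, from the lists, the most abundant and those with the extreme fold changes. In addition, the least alike of each, the listed miRNAs at 0 in a library, those of a list with the lowest p, those on 2 lists and familiar examples of a list were named after their values were seen. The code was tested on simulated counts. RefSeq genes were matched by symbol. Its coordinates served only to find which gene spans each miRNA locus, and none is printed, since its build differs from that of the table. Alternatives covered the scaling, pseudocount, filter, count test, thresholds, terms for depth, code class and pituitary list, each class alone and leaving out each calf. Software was R 4.3.3, limma 3.58.1, edgeR 4.0.16, DESeq2 1.42.0, Python 3.11.15 and scipy 1.17.1.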

Additional observations from a re-analysis of the deposited data

Results flagged for a closer look

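HI calf A42931 stood apart within the 8 HI calves of the other animal codes, with a ratio of miR-103 to miR-107 of 2.53. The next calf of that group was at 2.35 and the lowest at 2.21, so that the gap took 0.548 of the range of the group. It was 1 of 12 groups of values examined in this way, and a gap this large arises by chance in about 1 of 20 such groups. Its library was the deepest of the 30, with 21083250 reads counted, and held 131995 reads of miR-103 and 52273 of miR-107.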

How the results depend on the processing

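No paired analysis was possible because each calf belonged to 1 diet and the labels gave no number shared between the diets. The adjusted p of miR-103 stayed between 0.863 and 0.999 and that of miR-107 between 0.904 and 0.999 when the scaling, pseudocount, filter, test, terms or class of calves were altered. The direction of these near-zero log2 differences was not stable. By library size alone they were -0.018 for miR-103, -0.027 for miR-107 and -0.021 for the sum, where the median log2 fold change of all miRNAs was -0.043. By upper quartile scaling they were 0.071, 0.062 and 0.069, where that median was 0.041. MiR-107 was at -0.0067 with the code class as a term, -0.023 within the deeper libraries and -0.0063 within the other codes. Within the lowest codes, with 2 MOD calves, the differences were -0.025 for miR-103, -0.0080 for miR-107, -0.020 for the sum and -0.017 for the log2 ratio. The cause was not tested. Leaving out each calf gave 0.00038 to 0.047 for miR-103, -0.017 to 0.045 for miR-107, -0.0043 to 0.047 for the sum, -0.00050 to 0.017 for the log2 ratio and 0 to 1 miRNAs called. DESeq2 called 1, miR-2419-3p. That miRNA was also the 1 called by limma without HI calf A77860 (adjusted p = 0.0635) or MOD calf A97854 (adjusted p = 0.0640). An edgeR fit without HI calf A31979, whose values a second check did not accept as whole reads, was added after seeing the data and called 0 miRNAs. Depth did not limit the pair, which had at least 12745 reads per row in each library.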
